A study of Homo sapiens with 18 samples.

Results

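The GADD45 genes and the CDK inhibitors described here are 8 genes fixed by name: GADD45A, GADD45B, GADD45G, CDKN1A, CDKN1B, CDKN2A, CDKN2C and CDKN2D. They were taken from 34255 annotated genes for which transcript counts could be summed, and all 8 were among the 15519 genes tested. The samples were HEK293 cells, a human embryonic kidney line, in 3 genotypes: wildtype, β-arrestin1/2 KO (lacking β-arrestin1 and β-arrestin2) and Gαs KO (lacking the stimulatory G protein α subunit), both KO lines made with CRISPR-Cas9. All cells, controls included, had been transfected with the β2-adrenergic receptor (β2AR), serum starved overnight and, 48 h after transfection, given vehicle (basal) or 1 μM of the β-adrenergic agonist isoproterenol (ISO) for 1 h. Each of the 6 groups held 3 libraries labelled as biological replicates. The labels do not tie these to separate passages, so p-values measure the spread between the libraries. One KO line per genotype was sequenced, so that a difference between genotypes cannot be told apart from a difference between cell lines.

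GADD45 proteins are small, acidic stress proteins that bind PCNA and cyclin B-CDK1 and switch on the p38 and JNK kinase cascades through MAP3K4. They are known as growth arrest and DNA damage genes, and they are also induced by cytokines and by hormones. CDK inhibitors hold back the kinases that drive the cell cycle: the CIP/KIP proteins p21 (CDKN1A) and p27 (CDKN1B) bind cyclin-CDK complexes, and the INK4 proteins p16INK4a (CDKN2A), p18INK4c (CDKN2C) and p19INK4d (CDKN2D) bind CDK4 and CDK6. HEK293 cells carry adenoviral E1A and E1B, which bind the RB and p53 proteins.

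The libraries held between 17908597 and 25019834 estimated read pairs, with a median of 20419460. GADD45G had 72 to 273 counts per library and CDKN2D 95 to 245, the lowest of the 8, and their intervals were the widest. GNAS, which encodes Gαs, was at 1317 ± 379 counts per 1000000 (CPM, scaled by the TMM method, mean ± SD, n = 3) in wildtype basal and at 66.0 ± 5.04 in Gαs KO basal cells. ARRB2 was at 98.9 ± 28.6 CPM in wildtype and 20.8 ± 2.54 in β-arrestin1/2 KO basal cells, and ARRB1 at 49.6 ± 14 and 41.0 ± 2.87, so that the ARRB1 message was still counted in the KO line. The 5 HEK293 marker genes checked summed to between 181 and 454 CPM per library, each being over 1 CPM in at least 1 library, whereas immune, endothelial and erythroid markers summed to at most 8.11 CPM in any library, with CD3E and HBB at 0 throughout. Fibroblast markers (COL1A1, COL3A1, DCN and LUM) summed to between 31.4 and 51.2 CPM. Wildtype basal replicate 1 stood apart: the count-weighted GC content of its genes was 52.5%, against 49.2 to 50.1% in the other 17 libraries. Tests that use the wildtype basal group are therefore given with and without it. All libraries share an estimate of the spread, so leaving this library out also changed the adjusted p of tests within and between the KO lines.

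The responses turn on GADD45B, whereas GADD45G passed no test of a response, so the sequences before their starts are shown together. The third window lies before the outermost start of CDKN2C, which of the 8 differed most from wildtype at basal in both KO lines. The windows come from RefSeq (GRCh38.p14), run 5′ to 3′, and end at the base before the start, except for GADD45B, where the last 5 bases are left out because an annotated exon covers them. Capitals mark matches to TGACGTCA (the cAMP response element), TGACG (its core), TGACTCA or TGAGTCA (AP-1 sites), CCAAT and GGGCGG (the GC box), searched on both strands.
GADD45B, chr19:2475877-2476121, plus strand: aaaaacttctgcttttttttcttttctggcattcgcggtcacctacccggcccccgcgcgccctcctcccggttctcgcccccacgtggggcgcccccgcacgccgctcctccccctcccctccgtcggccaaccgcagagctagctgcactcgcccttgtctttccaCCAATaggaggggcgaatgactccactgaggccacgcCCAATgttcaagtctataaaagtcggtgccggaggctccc
GADD45G, chr9:89604762-89605011, plus strand: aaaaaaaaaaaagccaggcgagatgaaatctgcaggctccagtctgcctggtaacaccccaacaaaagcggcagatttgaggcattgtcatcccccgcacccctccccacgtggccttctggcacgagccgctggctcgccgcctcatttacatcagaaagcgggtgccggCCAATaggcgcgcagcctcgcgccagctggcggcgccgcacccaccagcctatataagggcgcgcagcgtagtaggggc
CDKN2C, chr1:50960495-50960744, plus strand: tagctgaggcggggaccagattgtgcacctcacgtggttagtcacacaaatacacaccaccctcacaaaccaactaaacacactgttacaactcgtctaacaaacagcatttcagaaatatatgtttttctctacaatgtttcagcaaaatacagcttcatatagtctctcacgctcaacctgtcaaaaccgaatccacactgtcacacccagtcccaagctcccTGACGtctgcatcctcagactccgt

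The GADD45B window held 2 CCAAT matches, at -82 and -45 from the start, and the GADD45G window held 1, at -79. CCAAT also occurred before CDKN1B, CDKN2D and 1 of 3 starts of CDKN2C, and was present in 32.0% of all 34943 promoter windows of 250 bases. No TGACGTCA and no AP-1 letters were found in any window of the 7 members that had one, beside 1.63% and 4.22% of all windows. The core TGACG, found in 21.2% of all windows, occurred only before the 3 starts of CDKN2C among these members, and is seen above at -25. GGGCGG, found in 42.5% of all windows, occurred 4 times before CDKN1A and was also present before CDKN1B, CDKN2D, 1 of 2 starts of CDKN2A and 2 of 3 starts of CDKN2C. GADD45A had no entry in the promoter table. These are matches of letters and say nothing about binding.

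The first comparison asked which of the 8 genes responded to ISO within 1 h and in which genotype. GADD45B rose in the wildtype and β-arrestin1/2 KO lines and CDKN1B (p27) rose in wildtype cells. Thus 2 of 8 members passed the test in wildtype cells, where 0.464% of all tested genes did. The members had been chosen with earlier results of these data known, so such shares only describe them. In β-arrestin1/2 KO cells 1 of 8 passed, where 1.13% of genes did. In Gαs KO cells 0 of 8 passed, where 0% of genes did by edgeR's quasi-likelihood test, 1.05% of genes (163) were at an unadjusted p under 0.05 and DESeq2 called 9 genes. None of the 8 was at an unadjusted p under 0.05 in Gαs KO cells or called there by DESeq2. The median log2 change of the 8 was 0.022 for wildtype, -0.12 for β-arrestin1/2 KO and 0.027 in Gαs KO cells, against -0.0022, -0.0083 and -0.0011 over all genes tested. When wildtype basal replicate 1 was left out, the medians of the 8 were 0.24, -0.12 and 0.029, with 3 of 8 called in wildtype (1.1% of genes), 4 in β-arrestin1/2 KO (11.7%) and 0 in Gαs KO cells (0%).

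**Figure D1:**
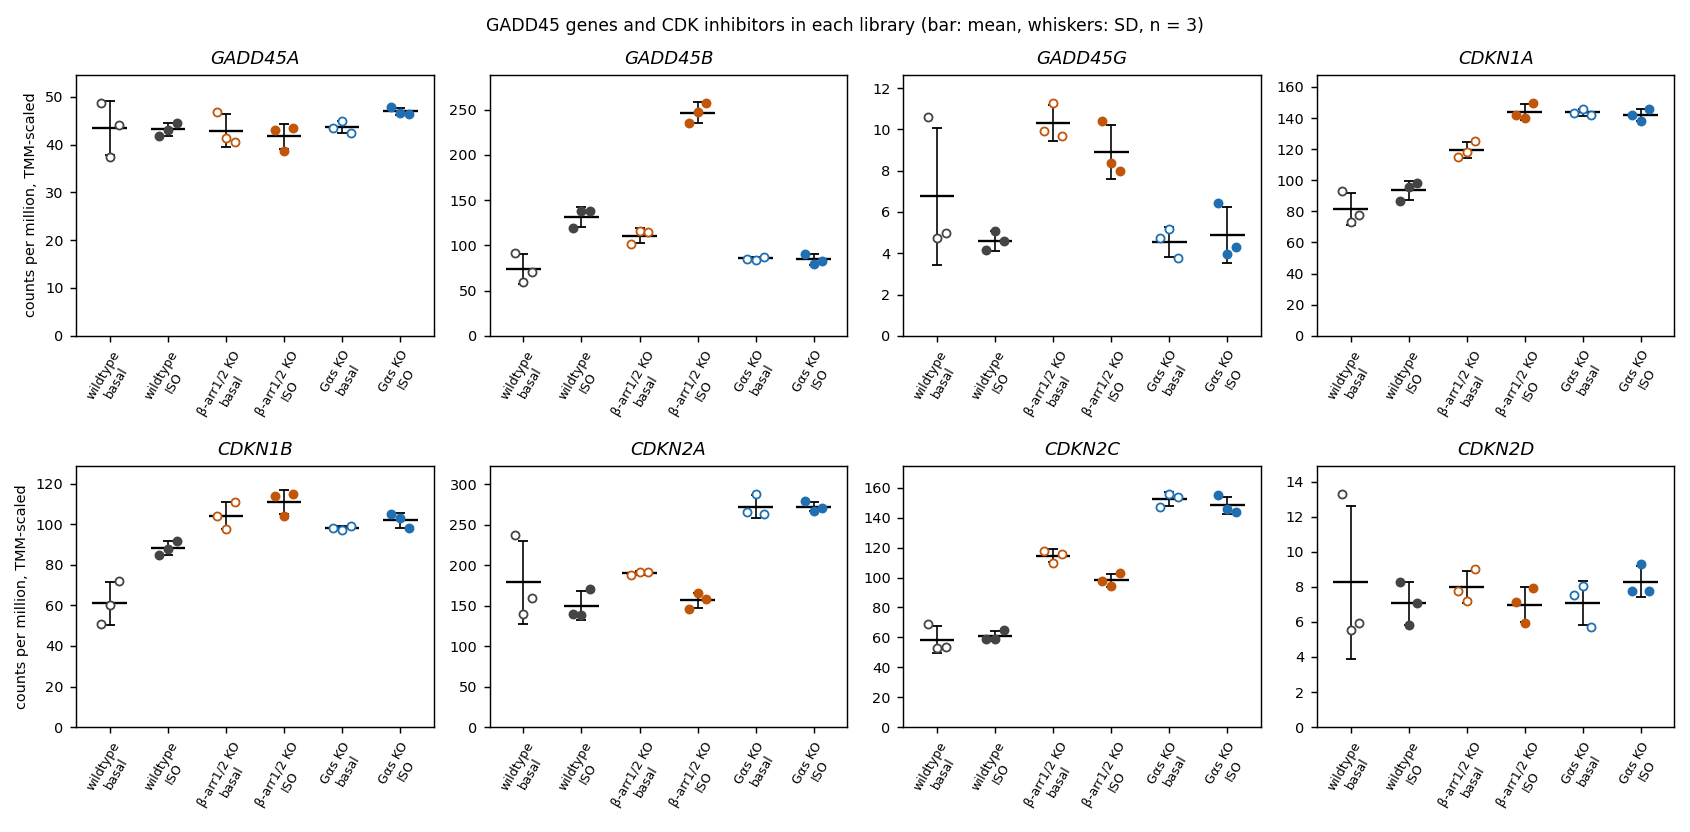
Each panel plots 1 gene, with the 6 groups on the horizontal axis and TMM-scaled CPM on the vertical axis, from 0; open points are basal and filled points ISO libraries, bars are means and whiskers SDs (n = 3). GADD45B sits between 235 and 258 in the β-arrestin1/2 KO ISO libraries, above all others, and wildtype basal replicate 1 is the highest of its group for every gene but CDKN1B, where it is the lowest.

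GADD45B (ENSG00000099860, chr19:2476122-2478259, plus strand) encodes a member of the GADD45 family, which acts through MAP3K4, and is known as an immediate-early stress gene. Wildtype basal libraries held 91.6, 59.2 and 70.6 CPM in replicates 1 to 3, and wildtype ISO libraries 119, 138 and 138 CPM. The β-arrestin1/2 KO line held 101, 116 and 115 CPM at basal and 235, 247 and 258 CPM after ISO. The Gαs KO line held 84.6, 84.2 and 87.7 CPM at basal and 91.0, 79.9 and 82.8 CPM after ISO. In the wildtype and β-arrestin1/2 KO lines every ISO library lay above every basal library, and the 2 Gαs KO groups overlapped. The share of all genes whose groups did not overlap was not taken, so overlap is given here and below as a description only.

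The rise of GADD45B was 1.78-fold in wildtype cells (95% interval 1.49 to 2.13, log2 fold change 0.83 with SE 0.12, adjusted p = 0.002 by edgeR's quasi-likelihood test). It was 2.23-fold in β-arrestin1/2 KO cells (1.86 to 2.66, log2 1.15 with SE 0.12, adjusted p = 2.7e-05 by edgeR). The fold in Gαs KO cells was 0.989 (0.828 to 1.18, adjusted p = 1 by edgeR), so that a change of more than 1.18-fold upward lay outside the interval. Without wildtype basal replicate 1 the wildtype log2 change was 1.02 (adjusted p = 1.2e-06). When only the 6 wildtype libraries were fitted the estimate was the same, 0.83, but the adjusted p was 0.82.

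The other GADD45 members passed no test of a response. GADD45A (ENSG00000116717, chr1:67685061-67688338, plus strand), the family member known as a p53 target, lay between 37.5 and 48.8 CPM in all 18 libraries. Its ISO over basal fold was 0.995 (0.868 to 1.14) in wildtype, 0.972 (0.848 to 1.11) in β-arrestin1/2 KO and 1.08 (0.940 to 1.23) in Gαs KO cells, and without wildtype basal replicate 1 the wildtype log2 change was 0.084 (adjusted p = 0.69 by edgeR). In Gαs KO cells its ISO libraries (46.5 to 47.8 CPM) all lay above its basal libraries (42.4 to 44.9 CPM), without a call. GADD45A was the steadiest of the 8: its highest group mean was 1.13 times its lowest, against 3.34 times for GADD45B.

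GADD45G (ENSG00000130222, chr9:89605013-89606555, plus strand), a member induced during differentiation and by cytokines, was at 10.6, 4.72 and 4.97 CPM in wildtype basal and 4.14, 5.08 and 4.58 CPM in wildtype ISO libraries. The first of these basal values was that of the library that stood apart. The wildtype log2 change was -0.56 with all libraries (adjusted p = 0.48 by edgeR) and -0.073 without that library. GADD45G in β-arrestin1/2 KO cells was at 9.92, 11.3 and 9.67 CPM at basal and 10.4, 8.35 and 7.97 CPM after ISO, and the groups overlapped. It ran in Gαs KO cells from 3.76 to 6.44 CPM over both groups.

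CDKN1B (ENSG00000111276, chr12:12715058-12722371, plus strand) encodes p27KIP1, an inhibitor of cyclin E-CDK2 that is high in quiescent cells. It was at 50.7, 60 and 72.1 CPM in wildtype basal libraries and at 84.7, 87.9 and 91.6 CPM in wildtype ISO libraries. All ISO values lay above all basal values, and the rise was 1.45-fold (1.25 to 1.67, log2 0.53 with SE 0.099, adjusted p = 0.017 by edgeR). The lowest basal value was that of replicate 1, and without this library the log2 change was 0.41 (adjusted p = 0.0053). Leaving out any 1 of the 3 wildtype ISO libraries ended the call, with adjusted p between 0.052 and 0.095, and with only the wildtype libraries fitted the adjusted p was 0.95.

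In the KO lines CDKN1B was above the ISO wildtype level in every library. It was at 104, 97.8 and 111 CPM in β-arrestin1/2 KO basal libraries and at 114, 104 and 115 CPM after ISO. Gαs KO cells had 98.3, 97.4 and 99.1 CPM at basal and 105, 103 and 98.0 CPM after ISO. The groups overlapped in both lines, with folds of 1.07 (0.923 to 1.23) and 1.04 (0.899 to 1.20) that did not pass the test.

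CDKN1A (ENSG00000124762, chr6:36676460-36687339, plus strand) encodes p21CIP1, the inhibitor best known as a p53 target. It was at 93.1, 73.3 and 77.8 CPM in wildtype basal and at 86.6, 95.8 and 98.4 CPM in wildtype ISO libraries, which overlapped. The β-arrestin1/2 KO libraries had 115, 118 and 125 CPM at basal and 142, 140 and 150 CPM after ISO, without overlap. The Gαs KO libraries had 143, 146 and 142 CPM at basal and 142, 138 and 146 CPM after ISO.

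These differences in CDKN1A did not pass the test: the folds were 1.15 (1.02 to 1.3, adjusted p = 0.43 by edgeR) in wildtype, 1.21 (1.07 to 1.36, adjusted p = 0.21) in β-arrestin1/2 KO and 0.986 (0.873 to 1.11) in Gαs KO cells. Both calls turned on the settings. Without wildtype basal replicate 1 the log2 changes were 0.31 (adjusted p = 0.0085) in wildtype and 0.27 (adjusted p = 0.0019) in β-arrestin1/2 KO cells, and with offsets for GC content and transcript length they were 0.32 (adjusted p = 0.0055) and 0.37 (adjusted p = 4.8e-04).

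The INK4 genes had 0 of 3 members called in each genotype. CDKN2A (ENSG00000147889, chr9:21967753-21995301, minus strand) was at 237, 140 and 159 CPM in wildtype basal and at 140, 139 and 171 CPM in wildtype ISO libraries. The log2 change in wildtype cells was -0.25 with all libraries and 0.0044 without replicate 1. CDKN2A in β-arrestin1/2 KO cells was at 188, 192 and 191 CPM at basal and at 146, 165 and 158 CPM after ISO, lower in every ISO library. The 6 values of Gαs KO cells ran from 263 to 288 CPM.

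CDKN2C (ENSG00000123080, chr1:50960745-50974633, plus strand), which encodes p18INK4c, behaved likewise in β-arrestin1/2 KO cells, with 118, 110 and 116 CPM at basal and 97.6, 94.2 and 103 CPM after ISO. In wildtype cells it was at 69.2, 52.7 and 53.7 CPM at basal and at 58.6, 58.8 and 64.6 CPM after ISO, and in Gαs KO cells at 147, 156 and 154 and then at 155, 146 and 144 CPM. The wildtype fold of CDKN2C was 1.04 (0.905 to 1.19), and without replicate 1 of the basal libraries the log2 change was 0.19 (adjusted p = 0.16 by edgeR). The folds in β-arrestin1/2 KO cells were 0.820 (0.667 to 1.01, adjusted p = 0.62 by edgeR) for CDKN2A and 0.856 (0.749 to 0.978, adjusted p = 0.48) for CDKN2C. Without wildtype basal replicate 1 the adjusted p was 0.012 and 0.0067 at log2 changes of -0.29 and -0.23. The count-weighted GC content was 49.8 to 50.1% in the β-arrestin1/2 KO basal libraries and 49.3 to 49.4% in the ISO libraries of that line. With offsets for GC content and length the log2 changes were -0.17 for CDKN2A (adjusted p = 0.17) and -0.16 for CDKN2C (adjusted p = 0.054), against -0.29 and -0.22 without offsets, and neither gene was called in either fit.

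CDKN2D (ENSG00000129355, chr19:10566462-10569059, minus strand), which encodes p19INK4d, lay between 5.53 and 13.3 CPM over all 18 libraries, the highest value being that of wildtype basal replicate 1. Its folds were 0.852 (0.573 to 1.27) in wildtype, 0.875 (0.589 to 1.3) in β-arrestin1/2 KO and 1.17 (0.790 to 1.74) in Gαs KO cells. None passed. The wildtype change turned direction without basal replicate 1, from -0.23 to 0.30 on the log2 scale (adjusted p = 0.53 by edgeR).

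**Figure D2:**
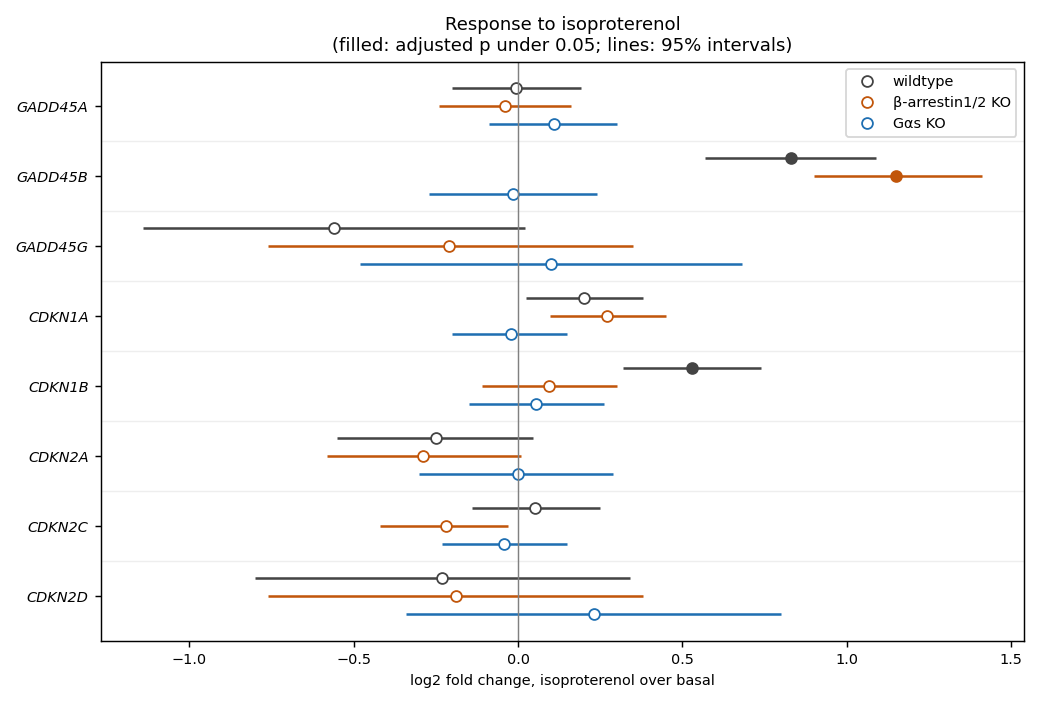
The horizontal axis gives the log2 fold change of ISO over basal for each of the 8 genes, with 1 point per genotype; lines are 95% intervals and filled points have an adjusted p under 0.05. GADD45B is filled in wildtype (0.83) and β-arrestin1/2 KO cells (1.15) and lies at -0.016 in Gαs KO cells, and CDKN1B is filled in wildtype cells (0.53).

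The next comparison asked whether the responses differed between genotypes. GADD45B responded more in β-arrestin1/2 KO than in Gαs KO cells, by 1.17 on the log2 scale (SE 0.17, 95% interval 0.81 to 1.53, adjusted p = 0.0021 by edgeR). With all libraries fitted it was the 1 member of 8 called in this difference, where 0.406% of genes were called. The CDKN1A difference was 0.29 (interval 0.045 to 0.54, adjusted p = 0.87), which did not pass. Without wildtype basal replicate 1 it passed (0.29, adjusted p = 0.032), with 2 of 8 members and 2.68% of genes called. It also passed with GC and length offsets (0.39, adjusted p = 0.018) and with only the libraries compared (0.29, adjusted p = 0.014). In the last fit CDKN2A passed too (-0.29, adjusted p = 0.027). Against wildtype cells, 0 of 8 members were called in either KO line, beside 0.168% of genes for β-arrestin1/2 KO and 0.161% for Gαs KO cells. At an unadjusted p under 0.05 there were 2 of 8 in each of these differences, beside 5.57% and 4.63% of genes, and DESeq2's Wald test called 1 of 8, GADD45B, in the difference between Gαs KO and wildtype responses. When wildtype basal replicate 1 was left out, CDKN1B and CDKN2C were called for β-arrestin1/2 KO (2 of 8, beside 8.25% of genes). GADD45B was then called for Gαs KO cells (1 of 8, beside 0.418% of genes).

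The GADD45B response in Gαs KO cells was lower than in wildtype cells by -0.85 on the log2 scale (SE 0.17, interval -1.21 to -0.48, adjusted p = 0.08 by edgeR), which did not pass. It passed without wildtype basal replicate 1 (-1.03, adjusted p = 6.1e-05), with DESeq2 (-0.84, adjusted p = 0.0013), with GC and length offsets (-1.0, adjusted p = 1.3e-05) and with all genes of at least 1 count kept (-0.85, adjusted p = 0.045). The β-arrestin1/2 KO response exceeded the wildtype response by 0.32 (interval -0.037 to 0.69, adjusted p = 0.96), and by 0.14 (adjusted p = 0.49) without that library. These differences share the basal and ISO libraries of each genotype.

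The CDKN1B response was smaller than in wildtype cells by -0.44 in β-arrestin1/2 KO (interval -0.73 to -0.14, unadjusted p = 0.0064, adjusted p = 0.46 by edgeR) and by -0.48 in Gαs KO cells (-0.77 to -0.18, unadjusted p = 0.0036, adjusted p = 0.56). Neither passed, so the rise called in wildtype cells is not shown to differ from the KO lines. Without wildtype basal replicate 1 the first difference was -0.32 with an adjusted p of 0.046 and the second -0.36 with 0.19. For CDKN2C the β-arrestin1/2 KO minus wildtype difference was -0.28 (adjusted p = 0.89), and it passed without that library (-0.42, adjusted p = 0.0066) and with GC and length offsets (-0.30, adjusted p = 0.023). Over all genes tested, the β-arrestin1/2 KO minus wildtype difference was called for 26 in the main fit. The count was 1302 (8.25%) without that library and 123 with the offsets.

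**Figure D3:**
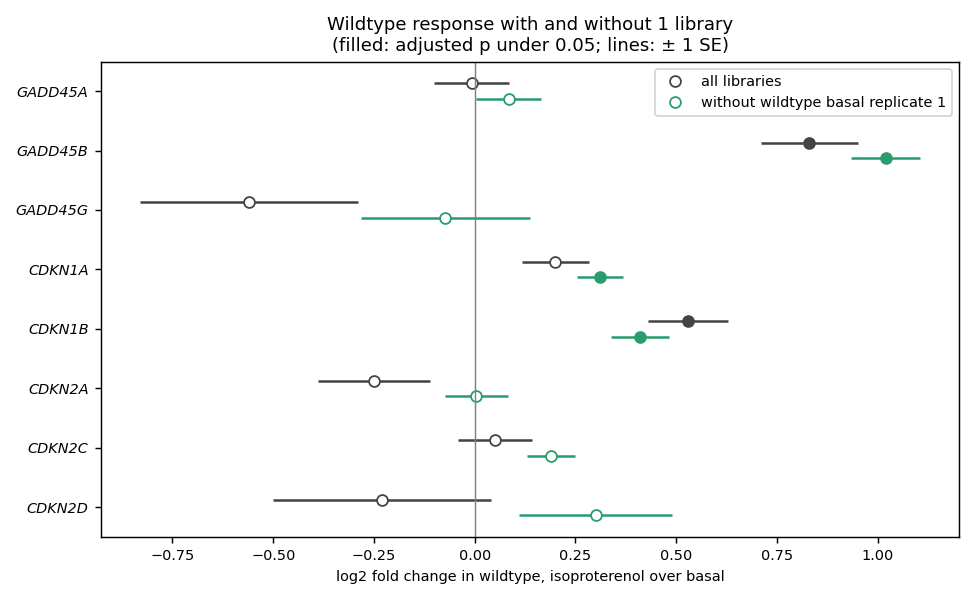
The horizontal axis gives the log2 fold change of ISO over basal in wildtype cells for each gene, fitted with all libraries (dark) and without wildtype basal replicate 1 (green); lines are ± 1 SE and filled points have an adjusted p under 0.05. GADD45B moves from 0.83 to 1.02 and CDKN1A from 0.20 to 0.31, CDKN1B from 0.53 to 0.41, the negative values of GADD45G and CDKN2A move to -0.073 and 0.0044, and CDKN2D turns from -0.23 to 0.30.

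At basal most of the CDK inhibitors were higher in the KO lines than in wildtype cells. Against wildtype, 4 of 8 members were called in β-arrestin1/2 KO cells, all higher: GADD45B, CDKN1A, CDKN1B and CDKN2C. Likewise 4 of 8 were called in Gαs KO cells, all higher: CDKN1A, CDKN1B, CDKN2A and CDKN2C. The share of all genes called was 33.6% and 31.3% in these comparisons (15.7% and 14.2% higher), and the median log2 difference was 0.57 and 0.41 over the 8 members against 0.023 and 0.007 over all genes. Leaving out wildtype basal replicate 1 gave 6 and 5 members called beside 46.7% and 45.9% of genes, all higher, and the medians of the 8 were 0.66 and 0.48.

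Of the 8 genes, CDKN2C differed most from wildtype in both lines. Its basal level was 1.96-fold that of wildtype cells in β-arrestin1/2 KO (1.71 to 2.25, log2 0.97 with SE 0.092, adjusted p = 9.0e-07 by edgeR) and 2.61-fold in Gαs KO cells (2.28 to 2.99, log2 1.38 with SE 0.093, adjusted p = 2.0e-08). The 3 basal groups did not overlap, and the call remained under all 28 alternatives in both lines, with log2 differences of 1.11 and 1.52 without wildtype basal replicate 1.

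The CIP/KIP genes were higher in both KO lines. CDKN1B was 1.71-fold higher in β-arrestin1/2 KO (1.48 to 1.98, adjusted p = 2.2e-05 by edgeR) and 1.61-fold in Gαs KO cells (1.39 to 1.87, adjusted p = 6.7e-05). CDKN1A was 1.47-fold higher in β-arrestin1/2 KO (1.3 to 1.66, adjusted p = 9.7e-05) and 1.77-fold in Gαs KO cells (1.56 to 2.00, adjusted p = 1.9e-06). For both genes every KO basal library lay above every wildtype basal library, and the calls remained under all 28 alternatives. In the fit without wildtype basal replicate 1 the log2 differences of β-arrestin1/2 KO were 0.66 for both genes, and those of Gαs KO were 0.57 for CDKN1B and 0.93 for CDKN1A.

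CDKN2A was 1.53-fold higher in Gαs KO than in wildtype cells (1.24 to 1.87, adjusted p = 0.0033 by edgeR), whereas the β-arrestin1/2 KO fold of 1.07 (0.870 to 1.31) did not pass. Without wildtype basal replicate 1, whose CDKN2A level was 237 CPM, the log2 differences were 0.87 (adjusted p = 1.2e-07) and 0.36 (adjusted p = 0.0012), so that both passed. GADD45B was 1.5-fold higher in β-arrestin1/2 KO cells (1.26 to 1.79, adjusted p = 0.0014) and 1.16-fold in Gαs KO cells (0.969 to 1.38, adjusted p = 0.20), and without that library both passed (log2 0.78, adjusted p = 1.1e-06, and 0.40, adjusted p = 0.0011). With only the libraries compared, the adjusted p was 0.083 for GADD45B in β-arrestin1/2 KO cells and 0.099 for CDKN2A in Gαs KO cells.

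GADD45G stood in opposite directions in the KO lines, at a log2 difference of 0.60 from wildtype in β-arrestin1/2 KO (adjusted p = 0.094 by edgeR) and -0.57 in Gαs KO cells (adjusted p = 0.12), neither called. Without wildtype basal replicate 1 these were 1.09 (adjusted p = 3.7e-04) and -0.09 (adjusted p = 0.76). The Gαs KO difference passed without wildtype basal replicate 2 (-0.78, adjusted p = 0.037), and the β-arrestin1/2 KO difference passed with GC and length offsets (0.78, adjusted p = 0.0019). The comparison of the KO lines with each other does not use the wildtype levels, but its p-values rest on a spread estimated from all 18 libraries. GADD45G was 2.26-fold higher in β-arrestin1/2 KO than in Gαs KO cells (1.52 to 3.36, adjusted p = 0.0038 by edgeR), and the 2 groups did not overlap. The log2 difference without wildtype basal replicate 1 was 1.18 (adjusted p = 4.3e-05).

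Between the KO lines at basal, 5 of 8 members were called, beside 26.2% of genes (the same 5 beside 45.3% without wildtype basal replicate 1). GADD45B and GADD45G were higher in β-arrestin1/2 KO cells (as were 13.8% of genes), and CDKN1A, CDKN2A and CDKN2C were lower (as were 12.4%). The folds of β-arrestin1/2 KO over Gαs KO were 1.3 for GADD45B (1.09 to 1.55, adjusted p = 0.03 by edgeR), 0.830 for CDKN1A (0.735 to 0.937, adjusted p = 0.024), 0.699 for CDKN2A (0.570 to 0.859, adjusted p = 0.011) and 0.752 for CDKN2C (0.658 to 0.859, adjusted p = 0.0028). The GADD45B and CDKN1A calls were each lost when any of 5 single libraries was left out, with adjusted p up to 0.095, and the CDKN2A call when Gαs KO basal replicate 2 was, at an adjusted p of 0.05. GADD45A and CDKN2D passed in none of the basal comparisons. The differences of CDKN2D from wildtype turned, without wildtype basal replicate 1, from -0.054 to 0.48 in β-arrestin1/2 KO (adjusted p = 0.05, not called) and from -0.23 to 0.30 in Gαs KO cells (adjusted p = 0.22), and those of GADD45A were 0.079 and 0.097.

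**Figure D4:**
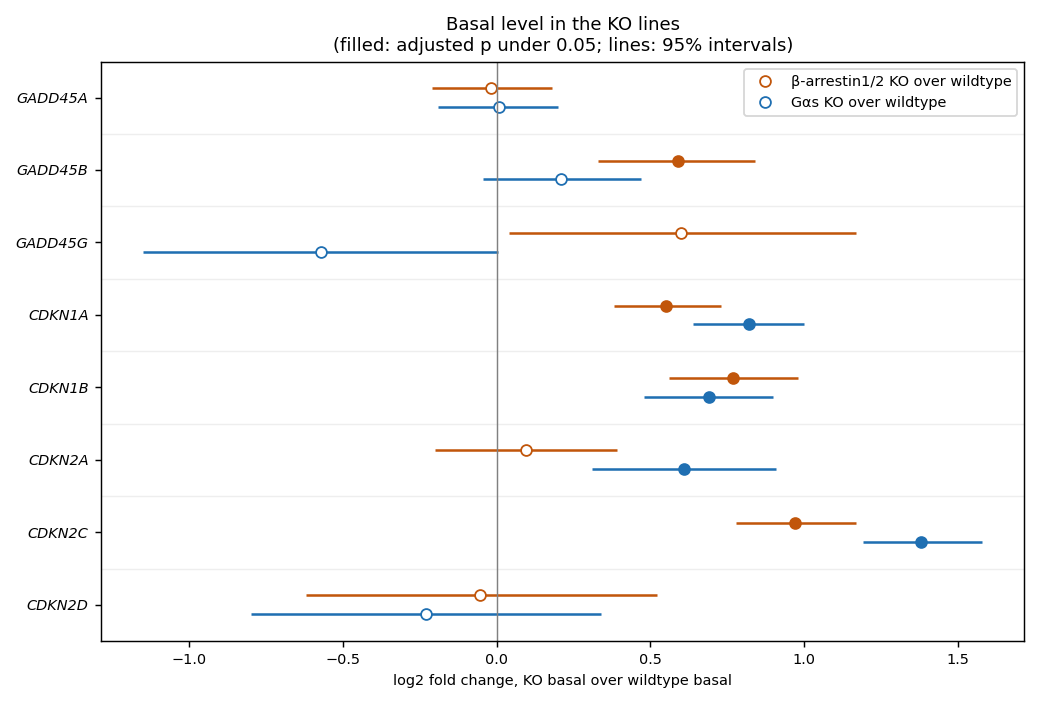
The horizontal axis gives the log2 difference of each KO line from wildtype cells at basal for the 8 genes; lines are 95% intervals and filled points have an adjusted p under 0.05. CDKN2C lies farthest to the right (0.97 and 1.38), CDKN1A and CDKN1B lie between 0.55 and 0.82 in both lines, and GADD45G lies on opposite sides of 0 without being filled.

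The order of the 6 groups differed from gene to gene. For GADD45B the β-arrestin1/2 KO ISO group (247 CPM on average) was followed by wildtype ISO (131) and β-arrestin1/2 KO basal (111), each apart from its neighbour, whereas the Gαs KO groups (85.5 and 84.6) and wildtype basal (73.8) overlapped. For CDKN2C both Gαs KO groups came first (153 and 148, overlapping), then β-arrestin1/2 KO basal (115) and ISO (98.2), and then the overlapping wildtype groups (60.7 and 58.5). For CDKN1A the β-arrestin1/2 KO ISO group overlapped both Gαs KO groups (144, 144 and 142 CPM), above β-arrestin1/2 KO basal (119), wildtype ISO (93.6) and wildtype basal (81.4). All neighbours overlapped for GADD45G and CDKN2D.

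Levels of different genes were compared per length, as TPM (counts over transcript length, scaled to 1000000 per library). In wildtype basal cells CDKN2A was the most abundant of the 8 at 294 ± 57.1 TPM (mean ± SD, n = 3), followed by GADD45B at 96.8 ± 10.5 and CDKN1A at 68.3 ± 3.35. GADD45A (58.0 ± 3.51), CDKN2C (56.4 ± 2.24) and CDKN1B (42.4 ± 9.26) came next, and CDKN2D (11.9 ± 4.58) and GADD45G (11.0 ± 4.20) were the lowest. Without replicate 1 CDKN2A was at 261 TPM, GADD45B at 92.1 and CDKN1A at 66.5, and GADD45G stayed the lowest at 8.62. CDKN2A kept the first place in every group but β-arrestin1/2 KO ISO, where GADD45B stood at 358 ± 14.2 TPM and CDKN2A at 291 ± 17.7. In both Gαs KO groups CDKN2C was second, at 160 ± 4.87 TPM at basal and 153 ± 6.41 after ISO.

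CDKN2A encodes unlike proteins from different first exons: p16INK4a and p14ARF, a nucleolar protein that binds MDM2. Transcripts were therefore summed by annotated start codon, chr9:21974825-21974827 for p16INK4a (4 transcripts) and chr9:21994329-21994331 for p14ARF (2 transcripts) on the minus strand of GRCh38. Salmon divides read pairs over shared exons between these transcripts, so the sums are estimates, and they are given as a description. Antisense CDKN2B-AS1 overlaps exons of CDKN2A, as DINOL does those of CDKN1A, and the strand of the library kit is not given in the sources used here.

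The ARF transcripts accounted for 45.0 to 48.1% of the CDKN2A sum in wildtype basal libraries, 57.0 to 61.4% in β-arrestin1/2 KO basal and 60.7 to 61.9% in Gαs KO basal libraries. In level they were at 106, 67.3 and 75.8 CPM in wildtype basal, 116, 109 and 111 CPM in β-arrestin1/2 KO basal and 161, 177 and 163 CPM in Gαs KO basal libraries, with no overlap between the groups. The INK4a transcripts were at 103, 50.7 and 74.5 CPM in wildtype basal, 60.3, 49.8 and 58.8 CPM in β-arrestin1/2 KO basal and 93.5, 101 and 85.7 CPM in Gαs KO basal libraries. The wildtype values overlapped both KO lines, but those of Gαs KO only through replicate 1, the library that stood apart. The other wildtype basal libraries, at 50.7 and 74.5 CPM, lay below all Gαs KO basal values.

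After ISO the INK4a transcripts in β-arrestin1/2 KO cells were at 41.7, 43.1 and 46.4 CPM and the ARF transcripts at 83.7, 96.3 and 86.1 CPM, both below all basal libraries of that line. In Gαs KO ISO libraries they were at 95.6, 93.8 and 94.0 CPM and at 171, 159 and 159 CPM, overlapping the basal values. The other 8 CDKN2A transcripts, with neither of these start codons, did not fall in β-arrestin1/2 KO cells. They were at 12.5, 32.8 and 21.2 CPM at basal and at 20.3, 25.8 and 25.3 CPM after ISO, which overlapped. Their mean share of the CDKN2A sum was 11.6% at basal and 15.2% after ISO.

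**Figure D5:**
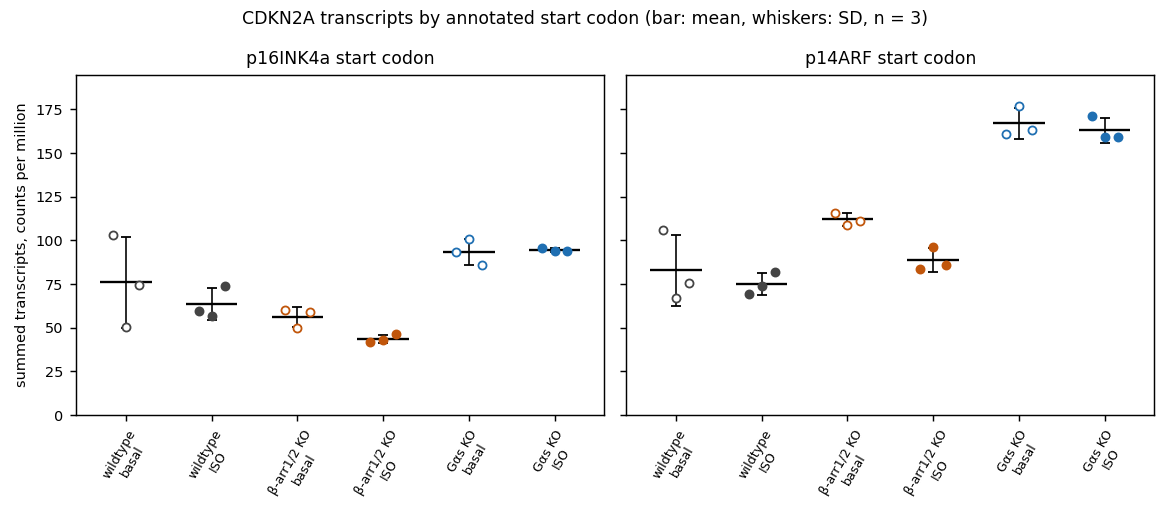
The vertical axis gives the summed CPM of CDKN2A transcripts that start at the p16INK4a codon (left) or the p14ARF codon (right), and the horizontal axis the 6 groups; points are libraries, bars means and whiskers SDs (n = 3). At basal the mean ARF sums are 83.2 for wildtype, 112 for β-arrestin1/2 KO and 167 for Gαs KO cells, and the mean INK4a sums are 76.0, 56.3 and 93.4.

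The remaining genes mostly gave 1 main transcript. GADD45B-201 held 91.4% of the GADD45B sum (84.4 to 95.7% over libraries), CDKN1A-201 94.2%, CDKN1B-201 99.8% and GADD45G-201 96.4%. CDKN2C was split between CDKN2C-203 (66.5%), CDKN2C-202 (21.3%) and CDKN2C-201 (12.2%), which share a start codon, and CDKN2D between CDKN2D-201 (71.9%) and CDKN2D-202 (28.1%).

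Genes that act with the members were read from 6 lists: other CDK inhibitors, cyclins and CDKs, RB and E2F, GADD45 partners, p53 and its targets, and p27 turnover with FOXO factors. In wildtype cells 2 of the 54 measured genes passed, BTG2 and PLK2, and in β-arrestin1/2 KO cells 3 passed, these and CCND1. All were higher after ISO, and none passed in Gαs KO cells. The 8 partners of GADD45 in the p38 and JNK cascades and PCNA, the 5 RB and E2F genes measured and the 6 genes of p27 turnover and FOXO had 0 called in any response. After leaving out wildtype basal replicate 1, 5 of the 54 passed in wildtype cells: BTG2, PLK2, TNFRSF10B, CCND1 and CDKN1C. The count in β-arrestin1/2 KO cells was then 16 of 54, where 11.7% of genes were called, and 0 in Gαs KO cells. These 16 went both ways, with RB1 higher and MAP2K7 and MAP3K4 lower after ISO. Of the cyclins and CDKs 2 were higher and 1 lower, and of the p53 genes 6 were higher and 4 lower.

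BTG2, an antiproliferative p53 target, was at 53.5 ± 1.72 CPM in wildtype basal and 224 ± 29.9 after ISO (log2 2.07, adjusted p = 3.7e-09 by edgeR), and at 82.6 ± 1.16 and 452 ± 11.7 in β-arrestin1/2 KO cells (log2 2.45, adjusted p = 2.9e-10). PLK2, a polo-like kinase that p53 also induces, was at 22.9 ± 0.775 and 32.0 ± 1.69 CPM in wildtype (log2 0.48, adjusted p = 0.013) and at 24.6 ± 1.58 and 43.0 ± 1.93 in β-arrestin1/2 KO cells (log2 0.81, adjusted p = 3.2e-05). With all libraries fitted, the other 19 of the 21 p53 genes measured passed in neither response, and the median over the list was 0.098 for wildtype and -0.019 for β-arrestin1/2 KO cells. TNFRSF10B also passed in wildtype cells once wildtype basal replicate 1 was left out (1.1% of all genes called). In β-arrestin1/2 KO cells 6 of the 21 were then called higher, BTG2 and PLK2 included, and 4 lower, where 11.7% of all genes were called. CCND1, which encodes cyclin D1, the partner of CDK4 and CDK6, rose from 96.8 ± 1.4 to 125 ± 3.69 CPM in β-arrestin1/2 KO cells (log2 0.37, adjusted p = 0.0036). In wildtype cells it was at 125 ± 6.57 and 150 ± 4.45 CPM (log2 0.27, adjusted p = 0.092). The wildtype log2 changes without basal replicate 1 were 2.09 for BTG2 (adjusted p = 7.8e-10), 0.47 for PLK2 (0.0095) and 0.24 for CCND1 (0.017), all called.

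At basal, the CDK inhibitors outside the 8 stood higher in both KO lines too, named here after their values were seen. CDKN1C (p57KIP2) was at 10.1 ± 3.41 CPM in wildtype, 34.4 ± 3.21 in β-arrestin1/2 KO (log2 1.77, adjusted p = 4.1e-06 by edgeR) and 22.4 ± 2.72 in Gαs KO cells (log2 1.14, adjusted p = 2.6e-04). CDKN2B (p15INK4b), the neighbour of CDKN2A, was at 12.7 ± 0.656, 36.3 ± 3.85 (log2 1.51, adjusted p = 3.5e-08) and 29.5 ± 2.16 CPM (log2 1.22, adjusted p = 3.4e-07). With replicate 1 of wildtype basal left out the log2 differences were 2.03 and 1.4 for CDKN1C and 1.5 and 1.2 for CDKN2B, all called. Among the 12 cyclins and CDKs 3 were higher and 4 lower in β-arrestin1/2 KO cells, and 2 higher and 2 lower in Gαs KO cells. Among the 21 p53 genes 6 were higher and 1 lower in β-arrestin1/2 KO and 4 higher and 5 lower in Gαs KO cells. These counts are to be read beside the 33.6% and 31.3% of all genes called, and without wildtype basal replicate 1 they were 4 higher and 4 lower and 2 higher and 3 lower for cyclins and CDKs, and 9 higher and 3 lower and 5 higher and 9 lower for p53 genes, beside 46.7% and 45.9%.

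The genes most like each member were those with the highest Pearson correlation of log2 CPM over the 18 libraries, a description over libraries that share genotype, treatment and depth. They were IER2 (r = 0.954), TOB1 (0.952) and DUSP4 (0.951) for GADD45B, and H1F0 (0.989), HIST1H2BK (0.982) and C9orf78 (0.982) for CDKN2C. MEX3B (0.961), LMNA and CSRP1 were nearest to CDKN1A, C2orf15 (0.944), NIPSNAP3A and CCNE2 to CDKN1B, and UNC45A (0.975), PFKL and MYL6B to CDKN2A. For GADD45G they were ARHGEF40 (0.955), PPP2R3B and IGLON5, for GADD45A OAZ2 (0.899), ELOF1 and AC026464.4, and for CDKN2D SLC12A9 (0.85), APH1A and SLC22A20P. Among the members CDKN1A and CDKN2C were the most alike (r = 0.896), followed by CDKN2A and CDKN2C (0.808), while GADD45B stood at -0.466 with CDKN2A.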

How the data were processed

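RNA was poly(A)-selected and sequenced as 150-bp read pairs. The authors deposited expected counts per transcript, estimated by Salmon 1.7.0 for 184844 transcripts in 18 libraries. The builds named are GRCh38 and hg38, and the transcript index is not given in the sources used here. Transcripts were summed to genes of GENCODE 29 by Ensembl ID (161798 matched, with 92.9 to 93.7% of counts kept) and rounded. edgeR 4.0.16 (R 4.3.3) was fitted to all 18 libraries with TMM scaling, filterByExpr by group and 1 coefficient for each group. A gene was called where its p, adjusted by Benjamini-Hochberg over all genes tested, was under 0.05. A standard error is the log2 change divided by the square root of F. DESeq2 1.42.0 served as an alternative. CPM used TMM-scaled totals, and TPM each transcript's length. The pipeline was tested on simulated data. Of genes changed 1.5-fold, edgeR recovered 43% in the wildtype response and 35% in the β-arrestin1/2 KO response. In the differences of the β-arrestin1/2 KO response from Gαs KO and wildtype it recovered 11% and 18%. For 3-fold changes these were 95%, 95%, 80% and 84%. Changes of about 1.5-fold can therefore be missed.

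Members and lists were chosen with earlier results of these data known. Named were the members, the targeted genes, list genes called in the wildtype or β-arrestin1/2 KO response (at most 4 per list) and the 3 genes most correlated with each member. Over 6 comparisons of groups, same-numbered libraries correlated between -0.0993 and 0.0766 in their departures from group means, so they were treated as unpaired. With 3 libraries against 3, an exact two-sided permutation test of a single value cannot go below p = 0.1, so none was used. GC and length offsets came from a lowess fit with a span of 0.3. Further alternatives were other scalings and filters, only the libraries compared, a replicate block, each library left out and an adjusted p under 0.01.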

Additional observations from a re-analysis of the deposited data

Results flagged for a closer look

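The response of GADD45B to ISO differed between the KO lines by the test of the difference itself: it was 1.17 higher on the log2 scale in β-arrestin1/2 KO than in Gαs KO cells (SE 0.17, adjusted p = 0.0021 by edgeR's quasi-likelihood test). All 3 ISO libraries of β-arrestin1/2 KO cells lay above their 3 basal libraries, whereas those of Gαs KO cells overlapped. The difference ran from 1.10 to 1.26 over the 28 alternatives, with adjusted p up to 0.012. The basal level of GADD45B also differed between these lines, by 0.37.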

How the results depend on the processing

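Directions of called values held under all 28 alternatives, and GADD45B was called in β-arrestin1/2 KO cells and in its difference from Gαs KO cells under each. Offsets for GC content and length, with or without the replicate block, called 3 members for the wildtype response (CDKN1A gained), 2 for the β-arrestin1/2 KO response, 1 for each difference from wildtype, 2 for the difference between KO responses, and 6 (GADD45G and CDKN2A gained) and 5 (GADD45B gained) for the basal differences of β-arrestin1/2 KO and Gαs KO from wildtype. In these basal differences the offsets without the block called 7497 and 7274 of the 15519 genes tested, against 5208 and 4864 in the main fit. With only the libraries compared, 0 members were called in wildtype, 4 in β-arrestin1/2 KO (CDKN1A, CDKN2A, CDKN2C and GADD45B) and 3 in the difference between KO responses. DESeq2 called 1 in the Gαs KO minus wildtype difference. At an adjusted p under 0.01, 1 member was called in wildtype and 2 between the KO lines at basal. No count over all genes was taken at that threshold. Leaving out 1 library gave 1 to 3 members in wildtype, 1 to 4 in β-arrestin1/2 KO, 0 to 2 and 0 to 1 in the differences from wildtype, 1 to 2 in that between KO responses, and 4 to 6, 4 to 5 and 2 to 5 at basal, the highest response counts coming without wildtype basal replicate 1. The replicate block, for libraries that share a number and were not shown to be paired, changed 1 call, GADD45G in β-arrestin1/2 KO basal cells (0.66, adjusted p = 0.048), and made the members called there 5. Per length of the longest transcript the wildtype basal levels were 76.9 for GADD45A, 16.5 for GADD45G, 95 for CDKN1A, 61.4 for CDKN1B, 366 for CDKN2A and 53.3 for CDKN2C. The causes were not tested.

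Counts over all genes moved more. In wildtype 72 genes were called, 13 with only the libraries compared, 187 with DESeq2, 226 with offsets and 173 without wildtype basal replicate 1. In β-arrestin1/2 KO cells these were 175, 1161, 291, 378 and 1849. For the differences from wildtype they were 26, 10, 104, 123 and 1302 (β-arrestin1/2 KO) and 25, 15, 68, 56 and 66 (Gαs KO), and between KO responses 63, 572, 125, 142 and 423. In Gαs KO cells DESeq2 called 9 and the other alternatives 0. At basal, with only the libraries compared, the counts were 1501 in place of 5208 for β-arrestin1/2 KO, 1587 in place of 4864 for Gαs KO and 7172 in place of 4064 between the KO lines, where offsets gave 6684 and the fit without wildtype basal replicate 1 gave 7144. GADD45G and CDKN2D had the fewest counts and the widest intervals.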
